A study of Mus musculus with 4 samples.

Results

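The genes described here are 6 STAT transcription factor genes (*Stat2*, *Stat3*, *Stat4*, *Stat5a*, *Stat5b* and *Stat6*) and 3 genes of the SOCS family of feedback inhibitors (*Socs1*, *Socs3* and *Cish*). They were chosen by name, and they account for 9 of the 20144 genes that could be named on the arrays and for 13 of 26581 named probes. RNA came from J774.1 cells, an established mouse monocyte-macrophage line. The cells had been exposed for 4 hours to DMSO, the solvent control, or to 1 µM of MG132, epoxomicin or ONX0914. All 3 compounds inhibit the proteasome. MG132 is a peptide aldehyde, whereas epoxomicin and ONX0914 are peptide epoxyketones, and the submitters describe ONX0914 as acting on the β5 and β5i subunits. For the ONX0914 array the treatment label reads ONX-0912, but ONX 0914 is the compound named in both the protocol and the paper.

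Each condition was measured on 1 array, and all 4 arrays lay on 1 slide. No difference below therefore has a replicate check, no P value can be given, and a treatment cannot be told apart from the culture or the array that carried it. The number of arrays limits the precision of every value. The threshold for calling a gene higher or lower was 2-fold, which is 1 in log2 units. Signals are printed as the scanner software wrote them, and fold and log2 differences were taken after the 75th percentile of each array had been subtracted on the log2 scale. The 3 inhibitor arrays share the DMSO array, so their differences from DMSO are not independent of each other. The samples were bulk cultures, in which fewer cells of a type and less RNA per cell cannot be told apart.

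Cytokines that bind a receptor of this pathway activate receptor-bound Janus kinases, which phosphorylate STAT proteins. The phosphorylated STAT proteins pair, enter the nucleus and switch on target genes, among them the SOCS genes. SOCS proteins in turn block the kinases or the receptors, and through their SOCS box they can direct bound proteins to ubiquitination and to the proteasome. In macrophages, STAT2 carries type I interferon signals, STAT3 those of IL-6 and IL-10, STAT5 those of GM-CSF, and STAT6 those of IL-4 and IL-13.

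The cell type label was evaluated with marker genes. All 9 named macrophage markers, including *Adgre1*, *Itgam*, *Cd14* and *Lyz2*, were well above background on every array. Their summed signal, not scaled between arrays, was 230819 in DMSO, 207023 in ONX0914, 168858 in epoxomicin and 154650 in MG132. After scaling, their median log2 differences from DMSO were −0.38 (MG132), −0.42 (epoxomicin) and −0.04 (ONX0914), and *Lyz2* was 2.01-fold lower in epoxomicin, the sole marker of the 9 past 2-fold. Of 10 T and NK cell markers, 3 were well above background on every array (*Cd3e*, *Cd4* and *Nkg7*), whereas *Cd3d*, *Cd3g*, *Cd8a*, *Cd2*, *Ncr1*, *Klrb1c* and *Cd247* were not on any. The summed T and NK signal lay between 6335 with MG132 and 7930 with ONX0914. *Cd79b* was the only B cell marker of 5 well above background, and the summed B cell signal lay between 61.2 and 81.5. Of 5 epithelial and fibroblast markers, *Pdgfra* was well above background with DMSO and *Krt8* with MG132 and epoxomicin, at summed signals of 61.5, 74.0, 175 and 50.4 in the order DMSO, MG132, epoxomicin and ONX0914. The part of these differences in the results below was not tested.

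Promoter sequences are shown for the 4 genes that were at least 2-fold higher with every inhibitor, because each holds a sequence of the kind that STAT dimers or interferon-activated factors are known to bind. The windows come from RefSeq on GRCm38.p6 and run from 250 bases before to 50 bases after the annotated transcript start, on the strand of the gene. *Stat2* lies on the plus strand of chromosome 10 (window chr10:128270248-128270547), *Socs1* on the minus strand of chromosome 16 (chr16:10785487-10785786), *Socs3* on the minus strand of chromosome 11 (chr11:117969317-117969616) and *Cish* on the plus strand of chromosome 9 (chr9:107296409-107296708). Capitals mark every match to 3 motifs searched on both strands, which were TTCNNNGAA, the pair TTC and GAA set 4 bases apart, and GAAANNGAA. The motifs can share letters.
Cish: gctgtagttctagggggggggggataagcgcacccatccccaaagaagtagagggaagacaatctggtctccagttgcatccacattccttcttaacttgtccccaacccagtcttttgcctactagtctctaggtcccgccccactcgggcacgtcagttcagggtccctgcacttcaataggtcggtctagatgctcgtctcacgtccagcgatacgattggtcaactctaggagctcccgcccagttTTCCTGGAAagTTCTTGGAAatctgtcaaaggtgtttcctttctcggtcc
Socs3: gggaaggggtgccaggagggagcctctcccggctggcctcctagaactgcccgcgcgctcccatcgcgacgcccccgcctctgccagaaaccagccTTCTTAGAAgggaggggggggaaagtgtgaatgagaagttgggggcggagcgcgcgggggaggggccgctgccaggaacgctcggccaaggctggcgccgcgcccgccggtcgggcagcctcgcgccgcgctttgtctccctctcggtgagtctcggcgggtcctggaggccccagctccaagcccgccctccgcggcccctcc
Socs1: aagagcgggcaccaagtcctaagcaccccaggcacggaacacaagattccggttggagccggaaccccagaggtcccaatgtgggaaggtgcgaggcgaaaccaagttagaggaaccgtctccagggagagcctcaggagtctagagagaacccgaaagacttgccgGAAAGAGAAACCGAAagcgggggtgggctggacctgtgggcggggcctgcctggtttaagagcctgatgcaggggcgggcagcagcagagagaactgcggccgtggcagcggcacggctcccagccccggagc
Stat2: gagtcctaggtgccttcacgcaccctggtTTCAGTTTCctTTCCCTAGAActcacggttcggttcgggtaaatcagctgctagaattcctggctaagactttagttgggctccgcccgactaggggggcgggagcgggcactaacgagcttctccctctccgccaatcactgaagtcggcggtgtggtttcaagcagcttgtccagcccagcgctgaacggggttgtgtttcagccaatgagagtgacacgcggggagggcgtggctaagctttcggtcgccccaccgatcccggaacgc
The *Cish* window held TTCNNNGAA at positions 1 to 9 and again at 12 to 20, counted from the first base of the transcript. In *Socs3* the same motif lay at −154 to −146, before a RefSeq start that is inside the annotated span of the gene. The *Socs1* window held GAAANNGAA at −83 to −75 and at −77 to −69, so the matches overlap. In *Stat2* the motif GAAANNGAA lay on the opposite strand at −221 to −213, and TTC and GAA set 4 bases apart followed at −210 to −201.

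Of the 12 RefSeq windows of the 9 genes, 5 held a match (41.7%), the remaining match being GAAANNGAA at −97 to −89 of the downstream *Stat4* start. No match was found in the windows of *Stat3*, *Stat5a*, *Stat5b* and *Stat6*, which says only that these letters are absent from those 300 bases. Of 32851 mouse promoter windows of the same length, 8.3% held TTCNNNGAA, 6.95% the pair set 4 bases apart, 8.56% GAAANNGAA and 21.4% any of the 3. A match is a description of the sequence and not a site in use.

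Among the SOCS genes, *Socs1*, *Socs3* and *Cish* were all at least 2-fold higher with each inhibitor than with DMSO, and of the STAT genes *Stat2* was. *Stat3* was higher by less than 2-fold, *Stat5a* was lower, *Stat5b* and *Stat6* stayed within 2-fold, and *Stat4* was not well above background on any array. Thus 8 of the 9 genes could be compared. With MG132, 4 of the 8 were at least 2-fold higher, where 7.25% of 13775 genes were, and 1 was at least 2-fold lower, where 3.69% of genes were. With epoxomicin 4 were higher and 0 lower, against 8.49% and 4.41% of 13870 genes. With ONX0914 the counts were also 4 and 0, against 3.27% and 1.4% of 13791 genes. The same 4 genes were higher with all 3 inhibitors, as were 2.02% of 13462 genes, and none was lower with all 3, as were 0.995%. The background split itself depended on the background correction and the scaling. With normexp, 471 genes were higher and 2522 lower for MG132, 569 and 3025 for epoxomicin, and 192 and 2704 for ONX0914. Fitted without outlier spots, normexp gave 602 and 284, 696 and 379, and 214 and 74 in the same order. For MG132 a shift to the median gave 840 and 695 and no scaling 740 and 904. For ONX0914 the authors' table gave 520 and 359. The same 4 genes stayed at least 2-fold higher under each of these. The 8 genes had median log2 differences of 1.52, 1.71 and 0.81 for MG132, epoxomicin and ONX0914, where the medians of all genes compared were −0.02, −0.04 and −0.01.

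**Figure D1:**
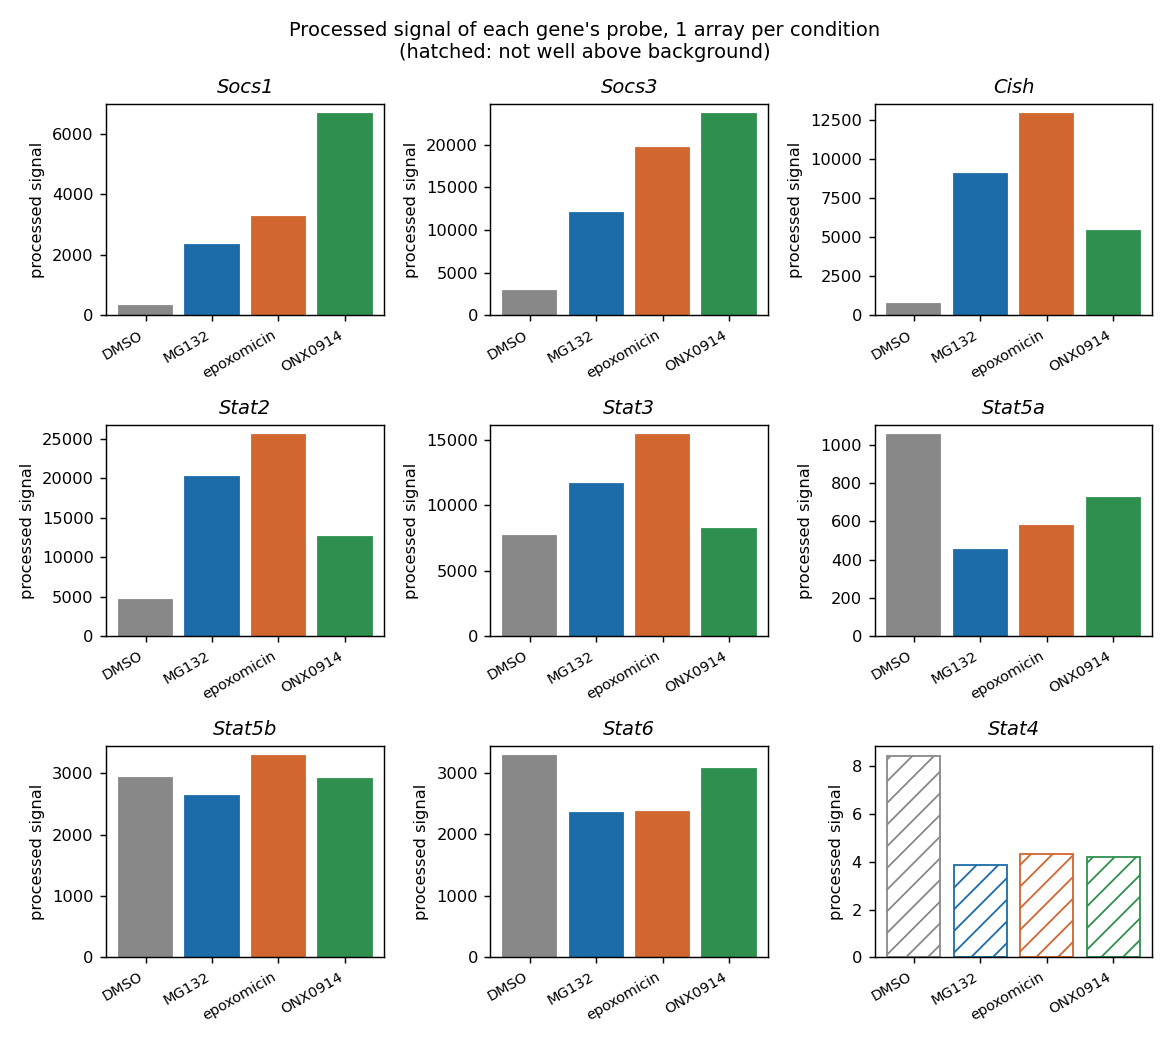
Processed signal (arbitrary units, linear axis from 0 in each panel) of the 9 genes on the DMSO, MG132, epoxomicin and ONX0914 arrays, 1 bar per array, with hatched bars where the probe was not well above background. *Socs1* and *Socs3* were highest with ONX0914, at 6654 and 23634, while *Cish* and *Stat2* were highest with epoxomicin, at 12880 and 25532, and panels cannot be compared in height because each gene has its own probe.

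*Socs1*, whose protein inhibits Janus kinases directly and restrains interferon-γ signaling, lies on chromosome 16 (chr16:10783808-10785536). The signal of 316 on the DMSO array stood against 2311 for MG132, 3236 for epoxomicin and 6654 for ONX0914. Every inhibitor array was thus above the DMSO array, and the ONX0914 array was the highest. Relative to DMSO the expression was 8.31-fold higher in MG132-treated, 10.1-fold higher in epoxomicin-treated and 21.6-fold higher in ONX0914-treated cells. Ranked by log2 difference, *Socs1* was number 6 of 13791 genes with ONX0914, number 90 of 13775 with MG132 and number 95 of 13870 with epoxomicin. Background correction by the normexp method moved the log2 differences of *Socs1* from 3.06, 3.34 and 4.43 to 2.31, 2.54 and 3.60, and the order of the arrays was kept.

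*Socs3*, whose protein binds the shared receptor chain of the IL-6 family and limits STAT3 activation, lies on chromosome 11 (chr11:117966079-117970336). DMSO-treated cells had a signal of 2841, and the inhibitor arrays read 11966 (MG132), 19643 (epoxomicin) and 23634 (ONX0914). The order of the arrays was the same as for *Socs1*, with smaller differences from DMSO. The expression was 4.79-fold, 6.82-fold and 8.55-fold higher with MG132, epoxomicin and ONX0914. These values placed *Socs3* at number 199, 166 and 27 among the genes compared.

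*Cish*, which encodes a SOCS protein known as a STAT5-induced inhibitor of cytokine signaling, lies on chromosome 9 (chr9:107296659-107302784). The probe read 714 in DMSO, 5371 in ONX0914, 9025 in MG132 and 12880 in epoxomicin. In contrast to the other SOCS genes above, the ONX0914 array was the lowest of the inhibitor arrays. MG132 gave a level 14.4-fold above DMSO, epoxomicin 17.8-fold and ONX0914 7.73-fold. *Cish* ranked number 40, 49 and 35, so that a smaller difference with ONX0914 held a similar place among all genes.

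*Stat2*, which encodes the partner of IRF9 in the interferon-activated complex ISGF3, lies on chromosome 10 (chr10:128270498-128292853). From the lowest to the highest, the signal was 4617 (DMSO), 12637 (ONX0914), 20141 (MG132) and 25532 (epoxomicin). The inhibitor arrays stood in the same order as for *Cish*. The expression was 4.96-fold, 5.46-fold and 2.81-fold higher, and *Stat2* ranked number 190 with MG132 and number 224 with epoxomicin and with ONX0914.

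**Figure D2:**
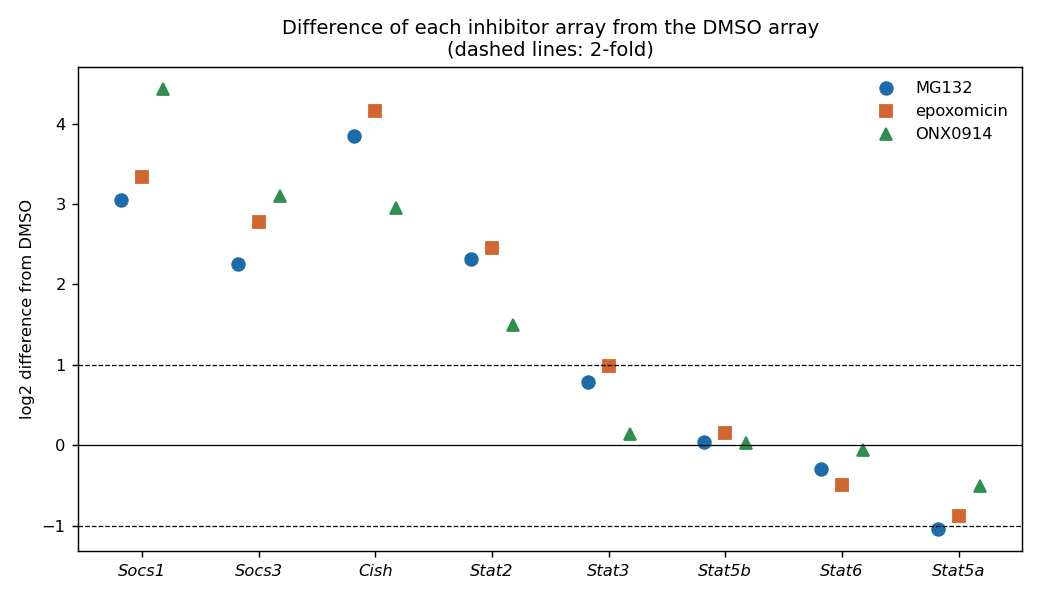
Difference of each inhibitor array from the DMSO array (log2 scale, vertical axis) for the 8 genes that could be compared, 1 point per inhibitor, with dashed lines at a 2-fold difference. *Socs1*, *Socs3*, *Cish* and *Stat2* lie beyond the upper line with all 3 inhibitors, and *Stat5a* crosses the lower line with MG132 alone, at −1.04.

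*Stat3*, which encodes the factor activated by the IL-6 and IL-10 receptors, was measured by a probe printed 10 times on each array. Over the 10 spots the signal was 7682 ± 151 in DMSO, 8195 ± 161 in ONX0914, 11630 ± 248 in MG132 and 15382 ± 406 in epoxomicin (mean ± SD over spots of 1 array). The ranges of the spots did not overlap between arrays. The lowest ONX0914 spot, at 7963, was above the highest DMSO spot, at 7853, before scaling. Spots of 1 array share a hybridization and an RNA sample, so this spread covers the measurement of 1 array and not the variation between cultures. After scaling, *Stat3* expression relative to DMSO was 1.98-fold higher in epoxomicin, 1.72-fold higher in MG132 and 1.10-fold higher in ONX0914. The difference with epoxomicin, at 0.98 on the log2 scale, lay just under the 2-fold line, and it passed the line with normexp, at 1.10, with quantile normalization, at 1.01, and with no scaling, at 1.00. A second *Stat3* probe gave log2 differences of 0.88, 0.89 and 0.41 at much dimmer signals of 134 to 252.

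**Figure D3:**
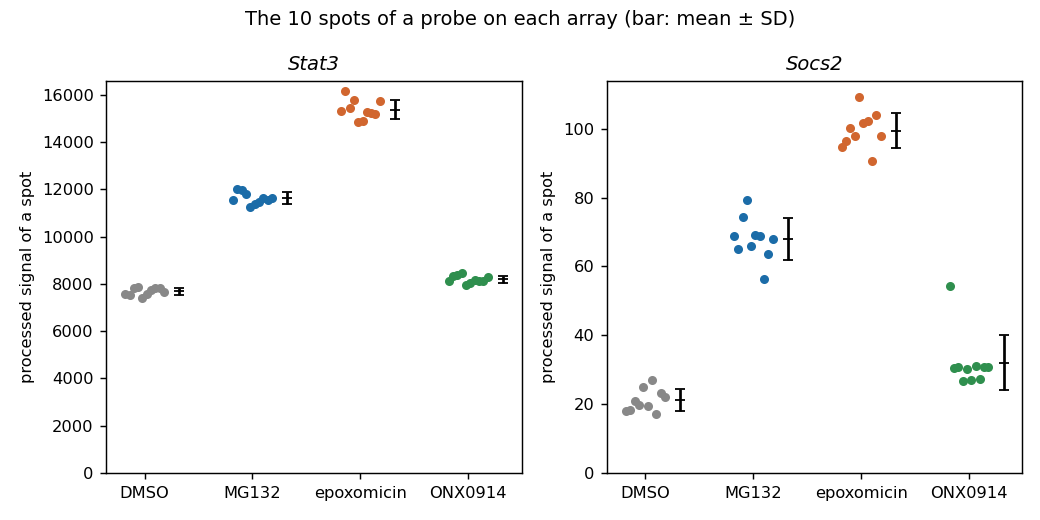
Processed signal of the 10 spots of the *Stat3* probe and of the 10 spots of the *Socs2* probe on each array, with the mean and the SD over spots. The *Stat3* spots form separate groups around 7682, 11630, 15382 and 8195, while the highest DMSO spot of *Socs2* (27.0) lies above the lowest ONX0914 spot (26.7).

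*Stat5a* and *Stat5b* encode closely related factors that respond to GM-CSF, IL-3 and other cytokines. The genes are neighbors of *Stat3* on chromosome 11, in the order *Stat5b* (chr11:100780731-100859004), *Stat5a* (chr11:100859351-100885169) and *Stat3* (chr11:100886806-100939594). In the annotation, 346 bases lie between *Stat5b* and *Stat5a* and 1636 bases between *Stat5a* and *Stat3*, and no other gene lies between them. The *Stat5a* signal was highest in DMSO, at 1052, and read 722 in ONX0914, 577 in epoxomicin and 449 in MG132. All inhibitor arrays were below the DMSO array, by 2.06-fold (MG132), 1.85-fold (epoxomicin) and 1.42-fold (ONX0914). The count of 1 gene lower with MG132 rests on this value, and with normexp fitted without outlier spots the log2 difference was −0.87 in place of −1.04. The *Stat5b* signal was 2925, 2637, 3292 and 2907 in the order DMSO, MG132, epoxomicin and ONX0914, with log2 differences of 0.04, 0.15 and 0.03. A second *Stat5b* probe gave 0.06, 0.16 and 0.11. Cross-hybridization between these related genes was not tested. Thus the differences of the 3 adjacent genes pointed upward for *Stat3*, downward for *Stat5a* and were close to 0 for *Stat5b*.

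*Stat6*, which encodes the factor that IL-4 and IL-13 activate, lies on chromosome 10 (chr10:127642955-127660987), 609510 bases before *Stat2* with 39 genes between them. The signals of 3275 (DMSO) and 3054 (ONX0914) lay above those of 2360 (epoxomicin) and 2336 (MG132). The log2 differences for MG132, epoxomicin and ONX0914 were −0.30, −0.49 and −0.06, so no inhibitor reached 2-fold. Its other probes differed in size, and 1 of them, with a signal of 40.5 to 92.9, gave −0.47, −1.22 and −0.49, while the other gave −0.14, −0.51 and 0.11. *Stat4*, the factor of IL-12 signaling in T and NK cells, lies on chromosome 1 (chr1:51987106-52107189). Signals of 8.44 (DMSO), 3.85 (MG132), 4.34 (epoxomicin) and 4.20 (ONX0914) were not well above background on any array, and no difference was computed.

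The inhibitors were next compared with each other at the same dose and time, which gave 3 pairs. Comparing ONX0914 with MG132, *Socs1* was 2.60-fold higher with ONX0914, the sole gene of the 8 past 2-fold upward where 1.08% of 13706 genes were, and 0 of the 8 were 2-fold lower where 3.04% were. Against epoxomicin, *Socs1* was 2.14-fold higher with ONX0914 (1.55% of 13792 genes were 2-fold higher) and *Cish* was 2.30-fold lower (4.42% were 2-fold lower). Between epoxomicin and MG132, 0 of the 8 genes differed by 2-fold, where 0.814% of 13631 genes were higher and 0.704% lower with epoxomicin. By the brightest probes, the largest of those differences was that of *Socs3*, 1.43-fold higher with epoxomicin. A dimmer *Stat6* probe, at −0.47 with MG132 and −1.22 with epoxomicin relative to DMSO (log2), differed by more. The epoxyketones therefore differed more from each other in *Socs1* and *Cish* expression than epoxomicin differed from the aldehyde MG132, by log2 values of 1.10 and −1.20 against 0.28 and 0.31. No interval can be given for these differences with 1 array each.

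*Stat2* and *Stat3* stood with *Cish*. *Stat2* was 1.76-fold lower with ONX0914 than with MG132 and 1.94-fold lower than with epoxomicin, and *Stat3* was 1.57-fold and 1.80-fold lower. The second, dimmer *Stat3* probe had a smaller gap, with log2 differences from DMSO of 0.88 (MG132), 0.89 (epoxomicin) and 0.41 (ONX0914). *Socs3* was 1.79-fold higher with ONX0914 than with MG132 and 1.25-fold higher than with epoxomicin. *Stat5a* was nearer to DMSO with ONX0914, 1.45-fold above its MG132 level and 1.30-fold above its epoxomicin level. By their brightest probes, *Stat5b* and *Stat6* differed by at most 1.35-fold in these pairs. The other *Stat6* probes, given above against DMSO, lay further apart between inhibitors.

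The order of the inhibitors was set beside that of other genes. Of the 272 genes at least 2-fold higher with all 3 inhibitors, 13 were highest with ONX0914 (4.78%) and 247 were lowest with it (90.8%). *Socs1* and *Socs3* were among the 13, and *Cish* and *Stat2* among the 247. The ONX0914 difference of *Socs1* exceeded the larger of the other differences by 1.10 on the log2 scale, number 1 of the 272 genes, followed by *Spdye4b* (0.67), *Impact* (0.37) and *Socs3* (0.33). The same quantity was −0.96 for *Stat2* and −1.20 for *Cish*. Over 9 alternative ways of computing the differences the excess of *Socs1* stayed between 1.04 and 1.17 and that of *Socs3* between 0.27 and 0.40.

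**Figure D4:**
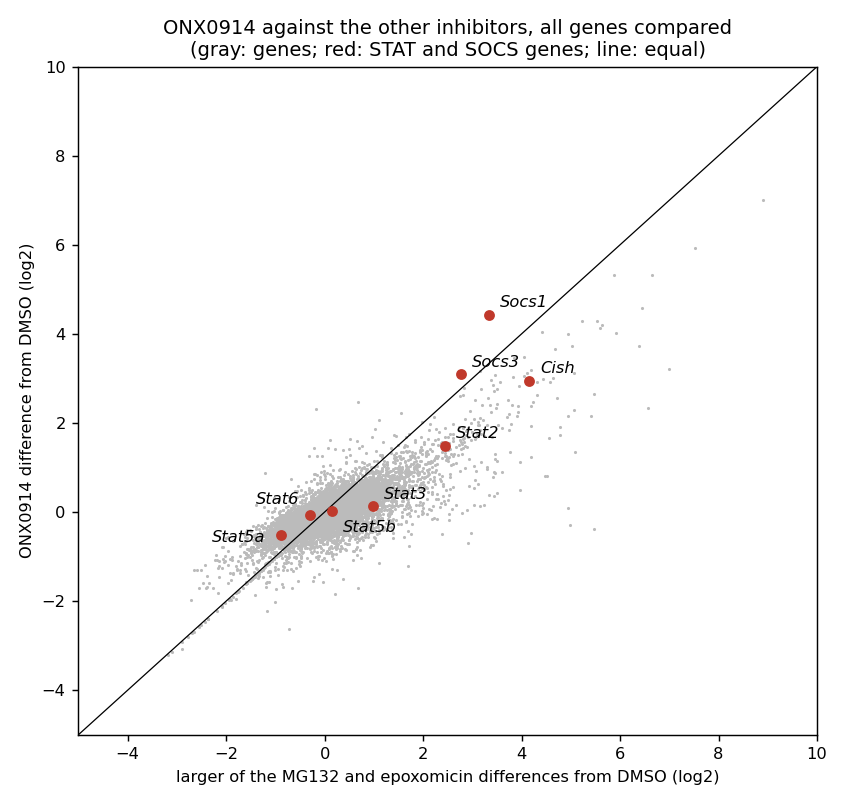
Difference of the ONX0914 array from DMSO (vertical axis, log2) against the larger of the MG132 and epoxomicin differences from DMSO (horizontal axis, log2) for 13462 genes (gray) and the 8 genes described (red), with the line of equal values. *Socs1* (4.43 against 3.34) and *Socs3* (3.10 against 2.77) lie above the line and *Cish* (2.95 against 4.15) and *Stat2* (1.49 against 2.45) below it, and both axes share the DMSO array.

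Genes with the most similar pattern were sought by the Euclidean distance between the 3 log2 differences from DMSO, over 12728 genes well above background on all 4 arrays. The nearest to *Cish* were *Tgtp1* (distance 0.18), *Il6* (0.20) and *Gbp5* (0.25). The nearest to *Stat2* were *Ifi202b* (0.12), *Nlrc5* (0.13) and *2810408A11Rik* (0.13). *Stat5a* was closest to *Mmut* (0.02), *Ckap2l* (0.04) and *Rgs18* (0.05). *Socs3* had *Cd274* (0.52), *Irf1* (0.53) and *Ddit3* (0.90) as its nearest genes. *Socs1* had no gene closer than *Cd69* (1.16), which was followed by *Ifit1* (1.26) and *Ddit3* (1.40). On this scale the patterns of *Stat5a*, *Stat2* and *Cish* had near neighbors, and that of *Socs1* had none within a distance of 1. The distance covers the size of the differences as well as their order across inhibitors. It was not set beside the distances of other genes with differences as large as those of *Socs1*.

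The other SOCS genes on the arrays were *Socs2*, *Socs4*, *Socs5*, *Socs6* and *Socs7*. *Socs2* was dim, with 7 of its 10 DMSO spots well above background, and its log2 differences were 1.88, 2.23 and 0.62. The *Socs7* log2 differences were 1.36, 1.17 and 0.35. By their brightest probes, *Socs4*, *Socs5* and *Socs6* lay within 2-fold of DMSO with each inhibitor, the highest value being 0.89. A second, dimmer *Socs6* probe (signals of 27.2 to 59.2) gave 0.71, 1.10 and 0.14, past 2-fold with epoxomicin.

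The wider pathway was followed in 10 lists with 114 genes outside the 9 described. With MG132, 23 of the 94 genes compared were at least 2-fold higher (24.5%) and 10 lower (10.6%), where 7.25% and 3.69% of all genes were. With epoxomicin 23 of 95 were higher (24.2%) and 12 lower (12.6%), against 8.49% and 4.41% of all genes. With ONX0914 12 were higher (12.6%) and 5 lower (5.26%), against 3.27% and 1.4%. The balance of higher and lower turned with normexp, to 14 and 20 for epoxomicin and 6 and 15 for ONX0914. For MG132 the counts came to 15 and 15. With normexp fitted without outlier spots the balance was kept, at 20 and 8 for MG132 and for epoxomicin and 9 and 3 for ONX0914. Without normexp, the median log2 differences of the pathway genes were 0.13, 0.27 and 0.09. With all 3 inhibitors, where 2.02% of all genes were higher and 0.995% lower, 10 of 94 were higher (*Irf1*, *Irf7*, *Usp18*, *Il6*, *Il15*, *Osm*, *Il2ra*, *Il1rn*, *Nfil3* and *Icam1*) and 3 lower (*Ccnd1*, *Csf2* and *Lifr*).

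Among the ligands upstream of the STAT factors, 10 could be compared. Of these, 4, 5 and 3 were higher with MG132, epoxomicin and ONX0914 (7.25%, 8.49% and 3.27% of all genes), and 2, 1 and 2 were lower (3.69%, 4.41% and 1.4% of all genes). *Il6*, the ligand that activates STAT3, was 15.7-fold, 16.6-fold and 8.36-fold higher. *Osm*, a cytokine of the same family and a known STAT5 target, was 4.68-fold, 4.50-fold and 4.36-fold higher. *Il10* was not well above background with DMSO, so only a bound can be given, and the level in MG132 was at least 9.53-fold, in epoxomicin at least 22.9-fold and in ONX0914 at least 1.76-fold that in DMSO. The difference was bounded by the higher of the probe's own DMSO signal and the lowest signal called well above background on that array. *Csf2*, which encodes GM-CSF and activates STAT5, was 3.25-fold, 2.73-fold and 2.26-fold lower. *Ifnb1* was well above background with DMSO and epoxomicin alone, and was at least 3.52-fold lower with MG132 and at least 3.60-fold lower with ONX0914.

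Of 24 receptor chains, 2, 2 and 1 were higher with MG132, epoxomicin and ONX0914, close to the all-gene shares of 7.25%, 8.49% and 3.27%. Lower were 5, 6 and 1, where 3.69%, 4.41% and 1.4% of all genes were. *Il2ra*, a known STAT5 target, was at least 17.8-fold, 33.3-fold and 8.71-fold higher. *Ifngr2*, a chain of the interferon-γ receptor, was 3.28-fold, 4.84-fold and 1.70-fold lower, and *Lifr* was 3.16-fold, 2.65-fold and 2.65-fold lower. None of the 4 Janus kinase genes differed by 2-fold, and the largest log2 differences were those of *Jak2*, at 0.89, 0.84 and 0.52. The 5 genes of the ubiquitin ligase that binds the SOCS box (*Elob*, *Eloc*, *Cul5*, *Rnf7* and *Rbx1*) also lay within 2-fold, with medians of −0.38, −0.39 and −0.10. For lists as small as these, no gene past 2-fold is close to the all-gene shares above.

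Of 12 negative regulators outside the SOCS family, 1, 2 and 1 were higher and 1, 2 and 0 lower, beside all-gene shares of 7.25%, 8.49% and 3.27% higher and 3.69%, 4.41% and 1.4% lower. *Usp18*, which restrains type I interferon receptor signaling, was 7.69-fold, 9.25-fold and 4.22-fold higher. *Ptpn6*, the phosphatase SHP-1, was 2.63-fold, 2.69-fold and 1.56-fold lower. All 4 interferon regulatory factor genes listed (*Irf1*, *Irf7*, *Irf8* and *Irf9*) were higher with MG132 and with epoxomicin, and 2 of 4 with ONX0914, beside the same all-gene shares. *Irf9*, the DNA-binding subunit that joins STAT2, was 2.38-fold, 2.94-fold and 1.78-fold higher.

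Known target genes of the STAT factors were taken last. Of the STAT3 targets, 9 of 15 were higher with MG132, 8 of 16 with epoxomicin and 5 of 16 with ONX0914, where 7.25%, 8.49% and 3.27% of all genes were, and *Ccnd1* was lower with each. *Il1rn*, which encodes the IL-1 receptor antagonist, was 12.5-fold, 18.9-fold and 5.53-fold higher, and *Ccnd1*, which encodes cyclin D1, was 6.25-fold, 7.15-fold and 2.46-fold lower. Of 10 STAT5 targets, 4, 2 and 3 were higher and 2 were lower with each inhibitor, the all-gene shares being those above for higher and 3.69%, 4.41% and 1.4% for lower. The lower STAT5 targets were *Ccnd1*, also on the STAT3 list, with each inhibitor, *Ccnd2* with MG132 and epoxomicin, and *Bcl6* with ONX0914. *Ccnd2* had log2 differences of −1.39, −1.40 and −0.87 and *Bcl6* of −0.69, −0.53 and −1.09. Of the 18 STAT6 targets of macrophages, 11 could be compared. Of these, 0 were higher, which for 11 genes is close to the all-gene shares of 7.25%, 8.49% and 3.27%. *Ccl24* alone was lower, with epoxomicin, by 2.03-fold (4.41% of all genes were lower with epoxomicin). *Arg1*, *Retnla* and *Mrc1*, genes of IL-4-activated macrophages, were not well above background in any comparison. The 9 reference genes, including *Actb*, *Gapdh* and *Hprt*, stayed within 2-fold of DMSO with each inhibitor.

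**Figure D5:**
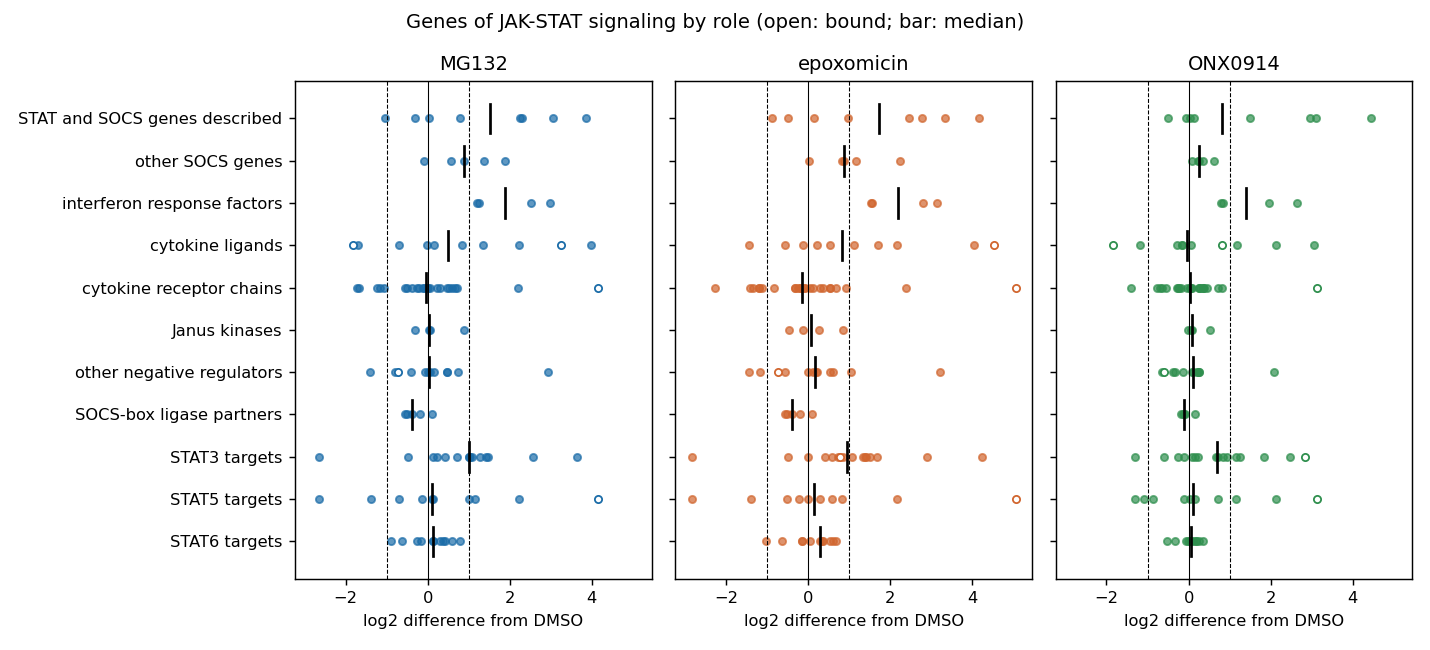
Log2 difference from DMSO (horizontal axis) of each gene in the pathway lists, in 1 panel per inhibitor and 1 strip per list, with open points for bounds and a bar at the median of each list. For MG132, epoxomicin and ONX0914, the interferon response factors have medians of 1.88, 2.18 and 1.40 and the STAT6 targets medians of 0.13, 0.28 and 0.07.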

How the data were processed

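J774.1 RNA was hybridized to 4 single-color (Cy3) arrays. The authors deposited scanner files of Feature Extraction 10.7.1.1, in which each spot has an intensity after background subtraction within the array. Deposited beside them was the authors' GeneSpring table, in log2 relative to the median of each probe, used as an alternative. The paper's methods name a human array, whereas the headers describe a mouse design, so probes were named through transcript accessions matched to RefSeq of GRCm38.p6 (67.4% of 39429 probes).

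Control spots and outlier spots were left out, and the log2 intensity minus the 75th percentile of the array was averaged over spots. The brightest probe stood for a gene. Genes well above background on at least 1 array of a pair were compared, and a bound replaced a signal not well above background. Between 60.3% and 63.1% of spots were well above background, and none was saturated. No sample grouping was tested, since each group had 1 array. The SD between spots of a probe had a median of 0.06 (log2) on each array.

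A gene of the wider pathway is not reported here. The genes and lists were chosen with earlier results of these data known. All 9 genes are named, list genes where they passed 2-fold with all inhibitors, were the extremes of a list or bear on a member's role, and the 3 nearest genes for each gene past 2-fold.

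The alternatives were normexp (offset 50, limma 3.58.1 in R 4.3.3, on median signals), normexp without outlier spots (chosen after seeing the data), other scalings, the authors' table, the mean over probes, other filters and thresholds of 1.5-fold and 4-fold. Python 3.11.15 with numpy 2.4.6 and pandas 2.3.3 was used, and scripts were tested on simulated data.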

Additional observations from a re-analysis of the deposited data

How the results depend on the processing

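No paired analysis was possible because each condition had 1 array, and no array could be left out. The 4 genes counted as higher, *Stat2*, *Socs1*, *Socs3* and *Cish*, were at least 2-fold higher with all 3 inhibitors under each of the 9 alternatives for differences. Of 228 recomputed differences of the 8 genes, 12 of them from other probes, 175 moved by less than 0.0867 on the log2 scale, 53 moved by more, and 0 called values changed sign. That limit is the largest of the arrays' median SDs between spots of a probe, taken for a difference of 2 spots. Uncalled values near 0 did change sign, for *Stat5b* with MG132 to −0.15 without scaling and −0.07 with a shift to the median, for *Stat5b* with ONX0914 to −0.03 with the percentile over detected probes and −0.0089 without scaling, and for *Stat6* with ONX0914 to 0.04 with normexp and 0.11 with another probe. Dim signals limit *Stat4*, *Socs2* and *Il10*. Normexp moved the median log2 difference of genes measured on all arrays from −0.02, −0.04 and −0.0018 to −0.22, −0.24 and −0.12 (MG132, epoxomicin, ONX0914). With normexp without outlier spots this median was 0.01, −0.04 and −0.0093. A shift to the median moved it to −0.12 and −0.12 for MG132 and epoxomicin.

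Of 234 counts, 184 stayed within 1.5-fold and the following 50 did not, in the order MG132, epoxomicin and ONX0914 where 3 values are given. With normexp, 471, 569 and 192 genes were higher and 2522, 3025 and 2704 lower, pathway genes higher were 15, 14 and 6, and pathway genes lower were 20 with epoxomicin and 15 with ONX0914. With normexp without outlier spots, 602, 696 and 214 genes were higher and 284, 379 and 74 lower, 3 pathway genes were lower with ONX0914, and 0 of the 8 genes were lower with MG132. Genes lower were 904 with MG132 without scaling. For ONX0914, genes lower were 359 in the authors' table and 347 with processed signals in place of bounds, 289 were higher and 101 lower when all arrays had to be well above background, and 812 and 476 with no filter. At 1.5-fold, 2056, 2295 and 1053 genes were higher and 1783, 1982 and 713 lower, 16 pathway genes were lower with MG132, 35 were higher with epoxomicin, 23 were higher and 12 lower with ONX0914, and 1 of the 8 genes was lower with epoxomicin. At 4-fold, 270, 337 and 114 genes were higher and 48, 60 and 20 lower, pathway genes higher were 10, 11 and 7 and lower 1, 2 and 0, and 0 of the 8 genes were lower with MG132. The cause of these moves was not tested, apart from those that the threshold or the filter sets by construction.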
